A study of Mus musculus with 6 samples.

Results

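The microRNAs described here come from 5 hairpins that lie within 10815 bases of each other inside the mouse gene Clcn5 on the X chromosome. The group is made up of miR-532-5p, miR-532-3p, miR-188-5p, miR-362-3p, miR-362-5p, miR-501-5p, miR-501-3p and miR-500. The group was chosen on a measured value, the loss of miR-501-3p from aortas of mice with Dicer targeted in myeloid cells. Its further members were taken by name as the other arm of that hairpin and as its neighbours. Of the 8 names, 7 had an assay among 517 microRNA assays, and miR-362-5p was not analysed here. Because the knockout comparison chose the group, the values of that comparison are given as a description, with no test for miR-501-3p. The p-values and calls of the other members are part of that description and are no test of the group.

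The samples were whole aortas of 6 male mice, taken here as 1 mouse each because the labels call the replicates biological. The 3 Dicer_KO aortas came from LysM-Cre/Dicer flox/flox/Apoe-/- mice and the 3 Dicer_WT aortas from LysM-Cre/Dicer wt/wt/Apoe-/- littermates, so Cre recombinase and the lack of apolipoprotein E, which makes mice prone to atherosclerosis, were common to both groups. Mice of 6 to 8 weeks were put on a fat-rich diet with 21% crude fat for 12 weeks. The lysozyme M promoter drives Cre in macrophages, monocytes and neutrophils, so Dicer remains in the other cells of the vessel wall, and neither the extent of its deletion nor its mRNA was measured here. The labels give both aorta and macrophage as the origin, and the RNA was that of the vessel. In such bulk RNA, fewer cells of a type and less of a microRNA per cell cannot be told apart.

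A microRNA hairpin is cut from its primary transcript in the nucleus by Drosha, and Dicer then removes the loop and leaves a duplex of the 5p and the 3p arm. One arm, or at times either, is loaded into Argonaute, where the seed near its 5′ end pairs with target mRNAs, and the unloaded arm is usually degraded. Clcn5 encodes an endosomal chloride and proton exchanger known best from the kidney, and hairpins carried inside a host gene are often transcribed together with it. The comparison asked whether the absence of miR-501-3p was shared by its partner arm and by the hairpins around it.

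RefSeq (GRCm38.p6) places all 5 hairpins on the minus strand within the span of Clcn5 (chrX:7153810-7319358), which is read from the same strand. In the order of transcription they are Mir532 (chrX:7248402-7248497), Mir188 (chrX:7247989-7248056), Mir362 (chrX:7241982-7242046), Mir501 (chrX:7241243-7241351) and Mir500 (chrX:7237683-7237774). Mir362 ends 630 bases before Mir501 begins and Mir500 follows it after 3468 bases, whereas 5942 bases part Mir188 from Mir362. The hairpin of Mir501 is printed first, with both of its mature arms in capitals, to show that the arm that was lost and the arm that was still measured are cut from 1 precursor.

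Mir501 hairpin: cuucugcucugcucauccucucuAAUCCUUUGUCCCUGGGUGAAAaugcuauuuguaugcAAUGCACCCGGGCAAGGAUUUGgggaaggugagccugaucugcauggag

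The mature sequences below show how alike the neighbours are, with the seed (bases 2 to 8) in capitals. The assay named miR-500 carries no arm in its name, so both arms of that hairpin are given.
miR-501-3p: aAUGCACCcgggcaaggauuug
miR-500-3p: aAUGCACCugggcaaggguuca
miR-362-3p: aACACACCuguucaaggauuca
miR-501-5p: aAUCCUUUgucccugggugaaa
miR-500-5p: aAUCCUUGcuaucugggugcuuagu
miR-362-5p: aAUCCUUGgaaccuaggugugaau
miR-188-5p: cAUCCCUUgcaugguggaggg
miR-532-3p: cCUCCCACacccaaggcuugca

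The seed of miR-501-3p was shared with miR-500-3p and with no other of 1679 mature mouse microRNA names in the RefSeq table. Over 22 positions counted from the 5′ end, miR-501-3p and miR-500-3p had 18 bases in common and differed by C9U, A18G, U21C and G22A, with the miR-501-3p base first. Between miR-501-3p and miR-362-3p, 15 of 22 positions were identical. Of the 5p arms, miR-362-5p and miR-500-5p have the same seed, and that of miR-501-5p shares all but its last base (U8G against either). The seeds of miR-188-5p and miR-532-3p were each found in no other member. The seed of miR-362-3p is also that of miR-329-3p, which is no member. miR-532-3p and miR-188-5p had the highest share of G and C of the sequences printed, 63.6% and 61.9%, against 54.5% in miR-501-3p.

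**Figure D1:**
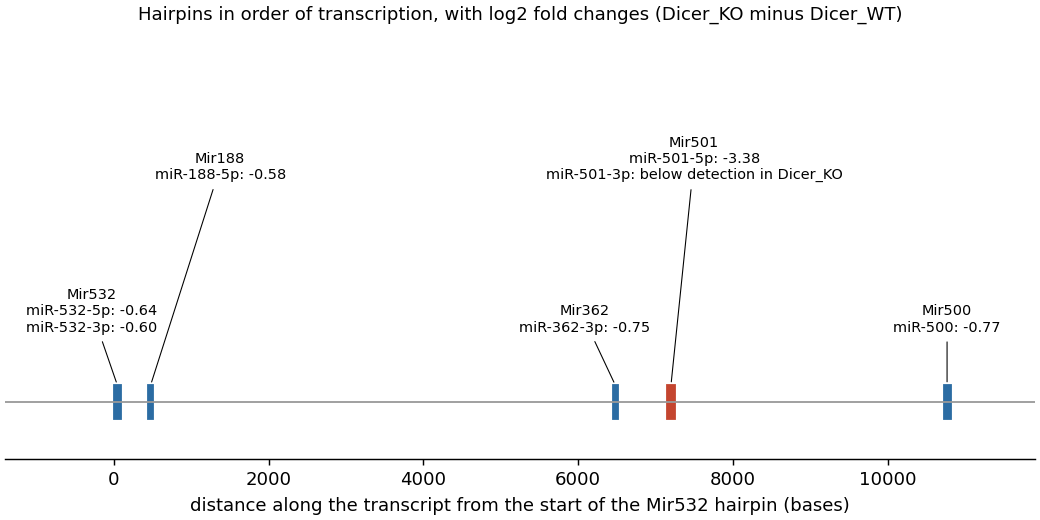
Position of the 5 hairpins along the transcript, in bases from the start of Mir532, each with the log2 fold change of its measured arms (Dicer_KO minus Dicer_WT, 3 aortas each). The red box is Mir501, the fourth of 5, and the values on both sides of it lie between -0.77 and -0.58. The value of miR-501-5p includes Dicer_KO replicate 3, where it was not detected and was set to the detection limit.

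MicroRNAs were read by TaqMan PCR on 2 array cards as threshold cycles (Ct), in which a value lower by 1 cycle means about 2 times the RNA and 40 stands for no product. Levels are also given as relative quantities, which set each Ct against small RNAs used as references, read in that aorta on that card, and the mean of the Dicer_WT aortas to 1 (0 on the log2 scale). An assay counted as detected below Ct 35, and empty wells were set to that limit, which makes any fold against an undetected group a lower limit. Between 374 and 378 assays were detected in the Dicer_WT aortas and between 349 and 366 in the Dicer_KO aortas, and 377 were tested. As to the tissue, the smooth muscle microRNAs miR-145 and miR-143 lay at a mean Ct of 11.8 and 14.9 in Dicer_WT aortas, the endothelial miR-126-3p at 16.0 and the myeloid miR-223 at 19.6.

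miR-501-3p, the 3p arm that chose the group, gave Ct values of 24.7, 25.0 and 25.7 in the Dicer_WT aortas (mean 25.1 ± 0.507, SD, n = 3) and no product in any of the 3 Dicer_KO aortas. It was therefore present in every wild-type aorta and below detection in every knockout aorta. With the empty wells at Ct 35, the level was at least 802-fold lower. In the authors' deposited table the ratio is 3.83e-05, because there the Ct of 40 was carried through as measured. Against its nearest neighbour miR-362-3p, measured on the same card of the same aorta so that the reference cancels, miR-501-3p came 1.81 ± 0.278 cycles earlier in Dicer_WT aortas (SD, n = 3) and at least 7.35, 7.04 and 6.87 cycles later in the Dicer_KO aortas.

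Empty wells among well-measured assays were rare. Of 178 assays whose lowest Ct over the 6 aortas was no higher than that of miR-501-3p, 4 had an empty well anywhere, all in Dicer_KO aortas. miR-501-3p was the one of these 178 that was empty in all 3 knockouts, and none of them was empty in all 3 wild types. The other 3, named after their values were seen, were miR-23a and let-7f*, each empty in 1 Dicer_KO aorta, and miR-715, empty in 2. For miR-501-3p this restates the value that chose the group, and the set was cut at its own lowest Ct. Among 282 assays with a lowest Ct no higher than that of miR-501-5p, miR-504 was also empty in all 3 knockouts. Whether the card or its lot had a part in the empty wells was not tested.

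**Figure D2:**
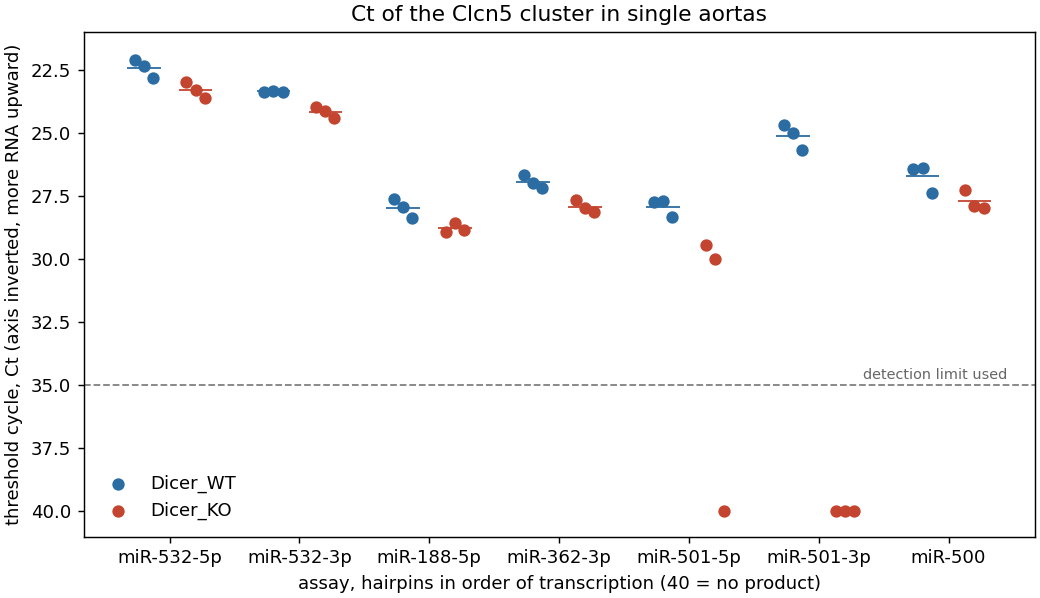
Ct of the 7 measured members in the 3 Dicer_WT (blue) and 3 Dicer_KO (red) aortas, with the axis inverted. Points are single aortas, short lines are group means where every well was detected, and the dashed line is the detection limit of Ct 35. miR-501-3p stands at 40 in all 3 Dicer_KO aortas and miR-501-5p in 1, while the other 5 assays were detected in every aorta.

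miR-501-5p, the opposite arm of the same hairpin, was read on the second card, whereas all other measured members stood on the first. Its Ct was 27.7, 27.7 and 28.3 in the Dicer_WT aortas, 29.4 and 30.0 in Dicer_KO replicates 1 and 2, and 40 in Dicer_KO replicate 3. In relative quantity this was 1.01, 1.19 and 0.831 in Dicer_WT against 0.360, 0.282 and at most 0.00878 in Dicer_KO. Every Dicer_KO aorta thus lay below every Dicer_WT aorta, but the arm was still measurable in 2 of 3 knockouts in which its partner was not. In those 2 aortas the log2 relative quantity was 1.65 below the wild-type mean. With the empty well at its limit the log2 fold change was -3.38 ± 1.44 (SE, n = 3 each, limma adjusted p = 0.199), with a 95% interval of -6.92 to 0.17.

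The size of that value followed the treatment of 1 well. It was -1.65 with empty wells left missing (adjusted p = 0.0493), -1.65 without Dicer_KO replicate 3 (adjusted p = 0.0583) and -5.04 with Ct 40 taken as measured (adjusted p = 0.270). The authors' deposited table gives a ratio of 0.212 for this assay, a ratio of arithmetic means in which an empty well weighs little. Empty wells were spread unevenly over the aortas. Among 282 assays with a lowest Ct no higher than that of miR-501-5p, 1, 0 and 0 wells were empty in Dicer_WT replicates 1, 2 and 3, against 3, 8 and 10 in the Dicer_KO replicates, of which replicate 3 had the most. The part of this in the empty miR-501-5p well was not tested.

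In Dicer_WT aortas miR-501-5p came 2.79 ± 0.209 cycles later than miR-501-3p (SD, n = 3), a distance between 2 assays on 2 cards and not a count of molecules. In Dicer_KO replicates 1 and 2 the order was turned round, and the Ct of miR-501-5p minus that of miR-501-3p was at most -5.55 and -5.01. The partner arm was also set against the neighbouring hairpins, with no test of the difference. Those were read on the other card, so the references do not cancel in this contrast. Relative to the median of the 5 members outside the hairpin in the same aorta, the log2 level of miR-501-5p stood at -0.07, 0.13 and -0.0035 in Dicer_WT aortas and at -0.90 and -1.28 in the Dicer_KO aortas where it was detected. In the third Dicer_KO aorta it was at most -5.95.

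**Figure D3:**
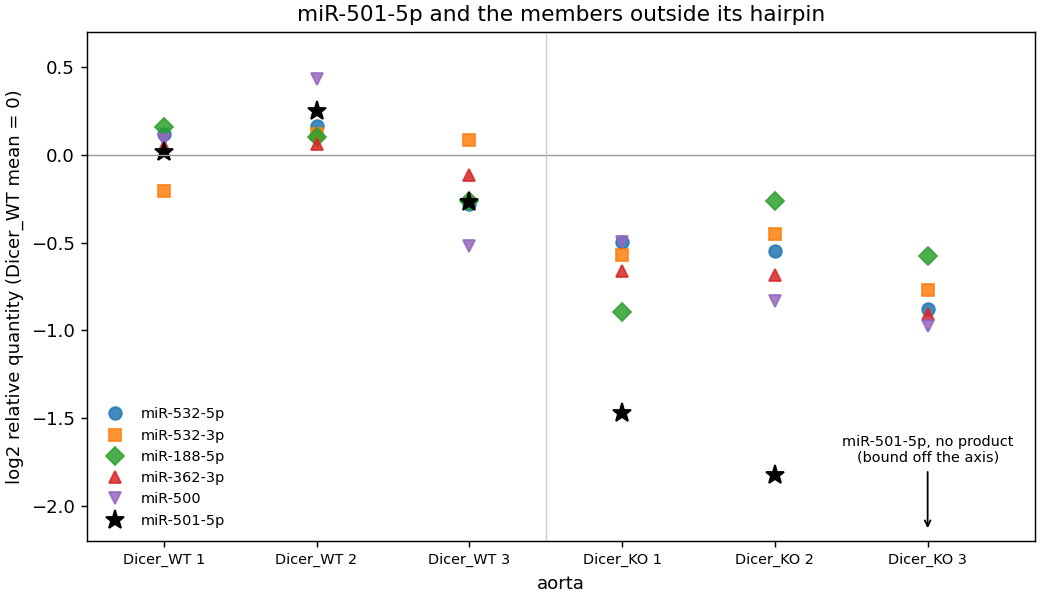
Log2 relative quantity of miR-501-5p (stars) and of the 5 members outside its hairpin in each aorta, with the Dicer_WT mean of each assay at 0. In Dicer_KO replicates 1 and 2 miR-501-5p, at -1.47 and -1.83, lies below all 5 others, and in replicate 3 it gave no product. It was read on another card than the others, so the references do not cancel.

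Outside the miR-501 hairpin, all 5 members were detected in all 6 aortas. Both arms of the first hairpin were the most readily detected of the group. miR-532-5p had relative quantities of 1.08, 1.12 and 0.822 in Dicer_WT and 0.709, 0.684 and 0.543 in Dicer_KO aortas. The groups did not overlap, and the log2 fold change was -0.64 ± 0.215 (SE, limma adjusted p = 0.137). miR-532-3p had 0.866, 1.09 and 1.06 in Dicer_WT against 0.674, 0.731 and 0.586 in Dicer_KO aortas, again without overlap (-0.60 ± 0.189, adjusted p = 0.128).

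The distance between the 2 arms of miR-532 did not differ between genotypes beyond the spread between aortas. miR-532-3p came 0.926 ± 0.350 cycles after miR-532-5p in Dicer_WT and 0.882 ± 0.101 cycles after it in Dicer_KO aortas (SD, n = 3 each). On the log2 scale the 3p arm differed by 0.044 relative to the 5p arm (exact permutation p = 1, two-sided, where 0.1 is the smallest that 3 against 3 can give), and the sign turned to -0.12 without Dicer_WT replicate 1 and the value was 0.23 without Dicer_WT replicate 3.

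miR-188-5p, from the second hairpin, had relative quantities of 1.12, 1.08 and 0.833 in Dicer_WT and 0.538, 0.833 and 0.671 in Dicer_KO aortas. Dicer_KO replicate 2 lay just above Dicer_WT replicate 3, so the groups touched (-0.58 ± 0.239, adjusted p = 0.190). Its partner miR-188-3p, which is not a member, gave no product in any aorta and therefore cannot show whether that arm differed.

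miR-362-3p, from the hairpin next to Mir501, had 1.04, 1.04 and 0.924 in Dicer_WT against 0.631, 0.622 and 0.534 in Dicer_KO aortas. It had the narrowest spread of the 5 and the lowest p, with no overlap (-0.75 ± 0.170, adjusted p = 0.0691). It passed the threshold in 1 alternative, without Dicer_KO replicate 1 (-0.79, adjusted p = 0.0475). An assay named miR-329, which gives no arm and may read the 3p arm with the same seed, had 1.04, 1.29 and 0.746 in Dicer_WT against 0.561, 0.336 and 0.361 in Dicer_KO aortas, without overlap (-1.29 ± 0.308, adjusted p = 0.0746).

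miR-500, from the last hairpin, had 1.06, 1.35 and 0.698 in Dicer_WT against 0.710, 0.561 and 0.509 in Dicer_KO aortas. Dicer_WT replicate 3 lay just below Dicer_KO replicate 1, so these groups overlapped (-0.77 ± 0.298, adjusted p = 0.173). The assay nearest in sequence to miR-501-3p, if it reads the 3p arm, was thus present in every Dicer_KO aorta, at Ct 27.3, 27.9 and 28.0.

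Counted together, 0 of the 6 measured members other than miR-501-3p were called lower at an adjusted p under 0.05 in limma, where 7 of 377 assays tested (1.86%) were. An unadjusted p under 0.05 with a lower level was found for 4 of the 5 outside the miR-501 hairpin, beside 24.4% of all assays tested. In 3 of these 5 every Dicer_KO aorta lay below every Dicer_WT aorta, against 32.6% of all assays tested. All 5 had a log2 fold change below 0, as had 78.2% of all assays. Their median was -0.64 and the range -0.77 to -0.58, beside a median of -0.42 over all assays with quartiles of -0.75 and -0.09. By log2 fold change they ranked from 88 to 138 of 377 from the lowest. miR-501-5p ranked 16 with its empty well set to the detection limit. The first rank of miR-501-3p restates the value that chose the group. The authors' deposited table gives ratios of 0.572 for miR-500 to 0.675 for miR-188-5p.

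**Figure D4:**
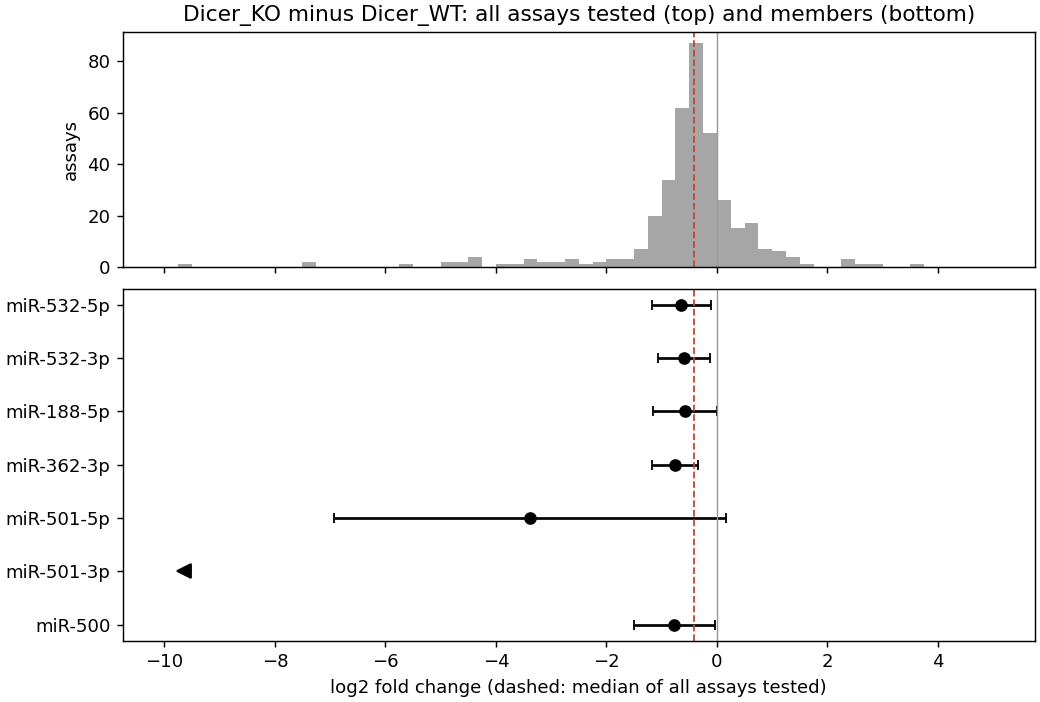
Log2 fold changes (Dicer_KO minus Dicer_WT) of all 377 assays tested as a histogram (top) and of the members with limma 95% intervals (bottom), where the triangle of miR-501-3p marks a bound. The point and interval of miR-501-5p include an empty Dicer_KO well set to the detection limit. The dashed line is the median of all assays at -0.42, and the 5 members outside the miR-501 hairpin lie to its left, from -0.77 to -0.58.

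The 5 outside members were compared with each other, in a design in which no pair could reach the threshold, since 0.1 is the smallest exact p with 3 aortas against 3. Over the 10 pairs they form, all read on 1 card so that the reference cancels, the log2 ratio of 2 members differed between genotypes by 0.017 to 0.19, and the groups overlapped in all 10 (exact permutation p of 0.4 to 1, Benjamini-Hochberg adjusted p = 1 for each). miR-188-5p stayed 5.54 ± 0.0537 cycles behind miR-532-5p in Dicer_WT and 5.48 ± 0.399 in Dicer_KO aortas, and miR-500 stayed 0.222 ± 0.390 and 0.206 ± 0.165 cycles ahead of miR-362-3p (SD, n = 3 each). The order of Ct from miR-532-5p over miR-532-3p to miR-500, miR-362-3p and miR-188-5p was found in 5 of 6 aortas. In Dicer_WT replicate 3 miR-362-3p came before miR-500, and these neighbours did not differ beyond their spread. In the Dicer_WT aortas miR-501-3p stood between miR-532-3p and miR-500 in this order.

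The sizes outside the hairpin depended on the scale. Their per-aorta median differed by -0.65 between genotypes on the authors' scale, by -0.35 with each aorta centred on its mean, by -0.36 after quantile normalization and by -0.13 with the small RNAs U87 and Y1 as references. The median of all assays shifted with them, to -0.12, -0.01 and 0.16 under these 3 scalings. Relative to the median of all assays in the same aorta, the outside median was lower by 0.015, higher by 0.042 and lower by 0.093 in the Dicer_WT aortas, and lower by 0.36, 0.15 and 0.26 in the Dicer_KO aortas. That difference of -0.23 ranged from -0.44 to -0.18 over all alternatives and was below 0 in each. The log2 fold change of miR-501-3p was -9.14 or lower under all 6 scalings.

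**Figure D5:**
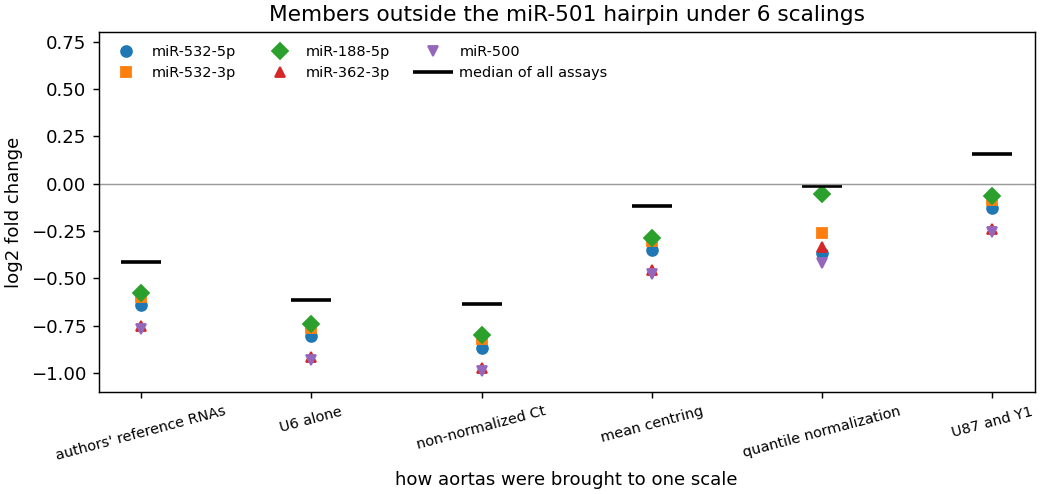
Log2 fold changes of the 5 members outside the miR-501 hairpin (symbols) and the median of all assays tested (bar) under 6 ways of bringing the aortas to one scale. The members lie below 0 and below the bar in each, from -0.99 without normalization to -0.06 after quantile normalization.

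The assays with a profile nearest to miR-501-3p, by the mean absolute difference of log2 relative quantity over the 6 aortas, were miR-504 (1.36), miR-715 (1.95), miR-433 (2.01), miR-423-5p (2.56) and miR-881* (2.60). Of these, miR-504 and miR-881* were below detection in all 3 Dicer_KO aortas and the other 3 in 2 of them. The distance of miR-501-5p was 3.21, and the 5 outside members lay at 4.52 to 4.70. The 5 named assays were picked as the nearest, and the Dicer_KO values of miR-501-3p also chose the group. No comparison with the members is therefore drawn from these distances. Nearest to the median of the outside members were miR-29c* (0.058), miR-379 (0.059), miR-222 (0.063), miR-128a (0.084) and miR-374 (0.094), within the distances of the members themselves (0.028 to 0.17).

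RefSeq placed 28 further tested assays on the X chromosome. Of these, 2 were called lower and 0 higher, and their median log2 fold change was -0.24. The 2 were miR-504 and miR-881*, which like miR-501-3p were detected in every Dicer_WT and in no Dicer_KO aorta. The same pattern was found in 4 of 221 placed assays on other chromosomes, and in 7 of all 377 tested, members included. On other chromosomes 3 of 221 placed assays were called lower, with a median of -0.47.

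The levels of cell type markers are given beside these values. The 4 assays listed as myeloid all had a log2 fold change below 0 and were detected in all 6 aortas. Of these, miR-223 (-1.66) and miR-511 (-1.99) lay below the median of all assays tested (-0.42). The arms miR-142-3p (-0.07) and miR-142-5p (-0.09), which are not particular to myeloid cells, lay above it. The summed relative quantity of all 4 (relative quantities added over the list) was 3.34 to 4.89 in Dicer_WT and 2.15 to 3.17 in Dicer_KO aortas. For the red blood cell markers the log2 fold change was 1.36 (miR-451) and 1.12 (miR-486), with a sum of 1.00 to 3.60 in Dicer_WT and 4.10 to 6.28 in Dicer_KO aortas. Both smooth muscle markers were below 0, with miR-143 at -0.76 and miR-145 at -0.42. Their sum was 1.81 to 2.19 in Dicer_WT and 1.14 to 1.76 in Dicer_KO aortas. In the myeloid, red blood cell and smooth muscle sums alike the groups did not overlap, and in those of the other lists they did. Among single assays, every Dicer_KO aorta lay below every Dicer_WT aorta in 32.6% of those tested. No such share was computed for sums. The endothelial miR-126-3p was at -0.01. Of the remaining lists, the lymphocyte and liver markers had 0 of 1 below 0 each, striated muscle 2 of 3, epithelial 1 of 3 and neuronal 2 of 2. Of all 19 marker assays 12 were below 0, beside 78.2% of all assays tested, and 0 were called in limma. An unadjusted limma p under 0.05 was found for 4, of which miR-223, miR-511 and miR-143 were lower and miR-451 higher. Of all assays tested, 24.4% were lower at that p. The part of these shifts in the values of the cluster was not tested.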

How the data were processed

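The authors' deposited table gives relative quantities as a linear ratio, and these were used and rebuilt from their Ct table (517 microRNA assays, 335 on the first card and 182 on the second). From the values, the references were U6, snoRNA135 and snoRNA202, with snoRNA429 on the second card, and the largest log2 difference to the deposited ratio was 5.22e-06. The deposited fold changes are a linear ratio by the authors. A decimal comma in 5 cells of Ct values was read as a point. The software and threshold behind the Ct were not given in the sources used here. Precision is limited by the number of arrays.

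Assays detected (Ct under 35) in at least 2 of 3 aortas of 1 group entered a limma fit (version 3.58.1, R 4.3.3, lmFit then eBayes). Its two-sided p-values were adjusted by Benjamini-Hochberg across the 377 tested (threshold 0.05). That step was tried on simulated data with neither empty wells in well-measured assays nor shifts between aortas, so the trial does not cover these. Exact permutation tests served for ratios of members, and no p is given for the median of members. Members and lists were chosen with earlier results of these data known. Named were the members, the 5 assays nearest to miR-501-3p and to the outside median, called X-linked assays and cell type markers. RefSeq placed 256 of the 377 on 1 chromosome. Non-member assays sharing a member's seed were sought among 124 whose names match a RefSeq arm, with none found. Assays named without an arm could not be searched this way, and miR-329 is given by its RefSeq name. Alternatives covered the reference, the Ct limit, empty wells, the filter, the block and each left-out aorta.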

Additional observations from a re-analysis of the deposited data

How the results depend on the processing

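Over 18 alternatives the count of called members other than miR-501-3p stayed at 0 except with empty wells left missing (1, miR-501-5p) and, among the fits without 1 aorta, where it ranged from 0 to 1 (miR-362-3p without Dicer_KO replicate 1). With the replicate number as a block the count was 0, the log2 fold change of miR-501-5p was -3.38 (adjusted p = 0.155) and no call of a member changed. Same-numbered aortas did not deviate together (correlations -0.08, -0.10 and 0.04), so they were not taken as pairs, and 7 assays were called with the block as without it. The log2 fold changes of all 7 measured members were below 0 in every alternative that gave a value. miR-501-3p ranged from -14.7 to -6.65, miR-501-5p from -5.04 to -1.65 and miR-188-5p from -0.80 to -0.06. With wells left missing miR-501-3p had no value, and with assays detected in all 6 aortas neither arm of miR-501 was tested. The change in the distance between the arms of miR-532 ranged from -0.12 to 0.23 without 1 aorta. Over all assays, 7 were called lower and 0 higher, against 24 and 2 at a Ct limit of 32, 14 and 1 with empty wells missing, 13 and 0 with Ct 40 as measured, 20 and 2 among assays detected in all 6 aortas, 11 and 0 without Dicer_KO replicate 2 and 55 and 9 without Dicer_KO replicate 1. It was 7 and 1 with mean centring and 7 and 2 after quantile normalization or relative to U87 and Y1. The arms of miR-362 could not be compared, as miR-362-5p was not analysed here.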
